A study of Rattus norvegicus with 3 samples.

Results

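Fibroblast growth factor (FGF) genes were followed through 3 stages of enamel formation in the rat: the ligands, their receptors, the docking adaptors of the receptors, and the transcription factors and feedback inhibitors that FGF signalling switches on. Members were chosen by gene symbol alone, as every gene of the deposited comparison table named as an FGF, an FGF receptor, an FGF-binding protein, a Sprouty or a Spred, together with Dusp6, Etv4, Etv5, Frs2, Frs3 and the coreceptor Klb. The rule found 33 of 16516 genes. RefSeq holds 43 protein-coding genes whose symbols match it, of which 11 (among them Fgf4, Fgf8 and Klb) were not analysed here. Fgfr1op and Fgfr1op2 entered by name only. They are named after fusions with the receptor gene in blood cancers, and Fgfr1op is listed as Cep43, a centrosome gene, in RefSeq.

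The tissue came from enamel organs of Wistar Hannover rats, dissected into cells of the cervical loop, secretory-stage ameloblasts and maturation-stage ameloblasts. No strain difference, allele or treatment separates the groups, and the age of the animals is not given in the labels. Per the labels 5 rats were used, 1 cervical loop library was left out because its RNA integrity number was under 7, and each library gave 25000000 reads of 75 bases, read from a single end. What was analysed is 1 mean per gene and stage, so no standard deviation can stand beside a mean, and the error between animals enters through the authors' p-values alone.

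FGFs are secreted proteins that bind receptor tyrosine kinases together with heparan sulfate on the cell surface. The activated receptor works through the docking protein FRS2 and the Ras-ERK cascade, which raises transcription of Etv4 and Etv5 and, as negative feedback, of Sprouty genes and of the ERK phosphatase gene Dusp6. In the rodent incisor, which grows throughout life, Fgf3 and Fgf10 of the dental mesenchyme maintain the epithelium of the cervical loop, Fgf9 is made by the epithelium, and Sprouty genes restrain the signal.

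Stage markers matched the labels. All 4 secretory markers were higher in secretory than in cervical loop tissue, all 6 maturation markers were higher in maturation than in secretory tissue, and 6 of 7 cervical loop and division markers were lower in secretory than in cervical loop tissue in the authors' deposited table. The populations were not purified epithelium. Summed means of 15 mesenchyme markers stood at 10860.5 in the cervical loop, 11209.9 in the secretory and 15160 in the maturation stage, and none of these markers was at or below 0.1 in any stage. In such bulk tissue, fewer cells of a type and less RNA per cell cannot be told apart. The whole table was shifted a little: its median log2 ratio stood at -0.14 from cervical loop to secretory, at 0.01 from secretory to maturation and at -0.12 from cervical loop to maturation, and the folds of the FGF genes are to be read relative to these medians. The 3 comparisons share their stages and are not independent.

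In the authors' deposited table a gene passed when its false discovery rate (FDR) over all genes was at most 0.05, and its direction is that of the stage means. Many genes passed, so the counts below are to be read beside the shares of all genes. Between cervical loop and secretory tissue 2 FGF genes were higher and 14 lower in the secretory stage (48.5% passed), where 16.5% and 25.2% of all genes were higher and lower (41.8% passed). Between secretory and maturation tissue 8 were higher and 5 lower in maturation (39.4% passed), against 21.8% and 21.1% of all genes (42.9% passed). Between cervical loop and maturation tissue 6 were higher and 17 lower in maturation (69.7% passed), against 24.1% and 33.7% of all genes (57.8% passed). For FGF genes with both means above 0.1, the median log2 ratio came to -0.46 from cervical loop to secretory, 0.10 from secretory to maturation and -0.63 from cervical loop to maturation. In the deposited test of all 3 stages together 22 of the 33 passed (66.7%), against 67.2% of all genes. These shares of all genes are the background, and no test of the FGF genes against it was made.

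Across the 3 pairs, 24 FGF genes passed at least once (72.7%) and 9 never did, where 72.1% of all genes passed at least once, so the FGF genes as a whole passed about as often as other genes. A group of 12 was higher in the cervical loop than in both other stages, a pattern of 18.6% of all genes: Fgf3, Fgf9, Fgf10, Fgf16, Fgf23, Fgfbp3, Fgfr2, Etv4, Etv5, Dusp6, Spry2 and Spry4. Another 5 were lower in the secretory stage than in both others, as were 6.2% of all genes: Fgf7, Fgfbp3, Fgfr3, Dusp6 and Spry4. A pair, Fgf1 and Fgf22, was higher in the secretory stage than in both others, as were 7.99% of all genes. Fgf7, Fgfr1, Fgfr3, Fgfrl1 and Spred1 were higher in maturation than in both others, as were 14.6% of all genes. Fgfbp3, Dusp6 and Spry4 thus stand in the first and second group, and Fgf7 and Fgfr3 in the second and the last.

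**Figure D1:**
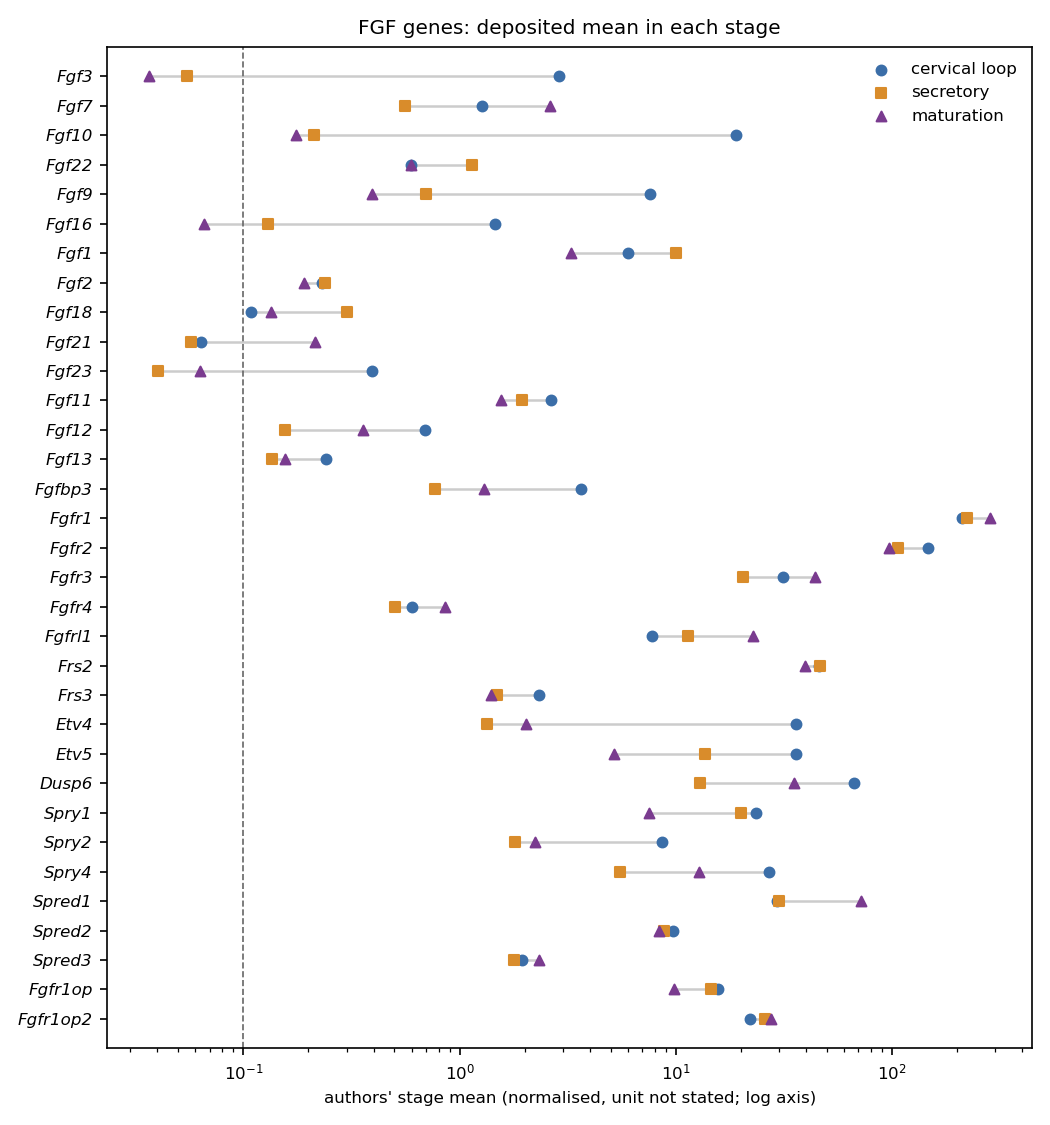
Deposited mean of each of the 33 FGF genes in the cervical loop (circles), secretory (squares) and maturation (triangles) stage, on a log axis in the authors' normalised unit, which is not stated. The dashed line is the floor of 0.1, and grey bars join the lowest and highest mean of a gene; Fgf10, at 19.1 in the cervical loop and 0.212 and 0.175 later, has among the widest bars. Levels are to be compared along a row, not between genes.

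Sequence is shown first for 2 feedback genes that fell together, Dusp6 and Spry4. Capicua is a transcriptional repressor that ERK signalling releases from DNA, and Etv4, Etv5, Dusp6 and Spry4 are among its known targets. Its octamers (TGAATGAA, TGAATGGA, TCAATGAA and TCAATGGA, on both strands) were looked for in RefSeq promoters of build GRCr8, from 250 bases before to 50 bases after each start. Promoters were matched for 29 of the 33 genes, 31 promoters in all, and Fgfr1, Fgfbp3, Etv4 and Fgf23 had no entry. An octamer was found in 3 of the 31 promoters, those of Dusp6, Spry4 and Fgf16, and in 4.26% of all 33469 promoters. The promoters of Etv5, Spry1 and Spry2 held none. Dusp6 carried 2, beginning 37 and 12 bases before the start, and Spry4 carried 1, beginning 198 bases before it. A match is a description of letters and not a binding site. An ETS site (CCGGAAGT, both strands) was found in the promoter of 1 gene, Frs2, and in 3.81% of all promoters, and the AP-1 site (TGACTCA, both strands) in 0 of the 31 promoters and in 4.63% of all. The 250 bases before the start are printed from 5′ to 3′ on the strand of the gene, with the octamers in capitals, for Dusp6 at chr7:35979354-35979603 (plus strand) and for Spry4 at chr18:30702547-30702796 (minus strand).
Dusp6: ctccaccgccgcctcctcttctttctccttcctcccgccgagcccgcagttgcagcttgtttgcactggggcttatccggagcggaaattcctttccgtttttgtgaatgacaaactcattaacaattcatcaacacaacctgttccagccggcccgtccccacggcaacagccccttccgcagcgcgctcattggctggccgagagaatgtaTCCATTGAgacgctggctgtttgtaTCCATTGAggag
Spry4: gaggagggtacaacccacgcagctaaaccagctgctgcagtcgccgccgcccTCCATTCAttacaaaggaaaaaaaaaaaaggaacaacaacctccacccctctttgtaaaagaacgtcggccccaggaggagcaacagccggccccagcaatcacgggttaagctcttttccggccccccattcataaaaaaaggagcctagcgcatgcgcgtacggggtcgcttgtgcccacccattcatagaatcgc

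The ligands of the cervical loop niche are given first. Fgf10, the mesenchymal ligand for the epithelial form of Fgfr2, stood at 19.1 in the cervical loop, 0.212 in the secretory and 0.175 in the maturation stage. It fell 89.8-fold from cervical loop to secretory tissue (FDR = 0.000357) and was 109-fold lower in maturation than in the cervical loop (FDR = 5.20e-05) in the authors' deposited table. With 1 added to each mean these folds were 16.6 and 17.1. Both later stages were near the floor, and the step between them did not pass (FDR = 0.942 in the authors' deposited table).

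Fgf3, which acts beside Fgf10, stood at 2.88 in the cervical loop and at or under the floor of 0.1 in the secretory (0.0549) and maturation (0.0368) stage, against which no fold is given. In the authors' deposited table it was lower in both stages, with FDR = 0.000424 for secretory and FDR = 8.42e-05 for maturation. Fgf9, the epithelial ligand, stood at 7.63, 0.700 and 0.393 in the order of the stages. In the authors' deposited table it was 10.9-fold lower in secretory (FDR = 0.00253) and 19.4-fold lower in maturation than in cervical loop tissue (FDR = 0.000772), or 5.08-fold and 6.20-fold with 1 added to each mean. Its close relative Fgf16, at 1.46, 0.129 and 0.0654, was 11.2-fold lower in secretory tissue (FDR = 0.00172 in the authors' deposited table), or 2.17-fold with 1 added. Like Fgf10, these 3 ligands had their high mean in the cervical loop alone.

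Markers of the mesenchyme, the source of Fgf3 and Fgf10, moved with them in part. Of the 15, 1 was higher, 6 were lower and 8 did not pass for secretory against cervical loop, with a median log2 ratio of -0.63 against -0.14 over all genes. Twist2, a mesenchymal transcription factor gene, stood at 11.5, 1.17 and 0.304 (FDR = 0.0022 for secretory against cervical loop in the authors' deposited table). Col1a1, the main collagen chain of mesenchyme, stood at 5618, 5218 and 6385 and did not pass for that pair (FDR = 0.519 in the authors' deposited table). Msx1 stood at 35.2, 15.4 and 16.1 and passed for it (FDR = 0.00222 in the authors' deposited table). The division gene Mki67 fell as well, from 289 to 38.8 in the secretory stage (FDR = 0.000424 in the authors' deposited table), and stood at 35.3 in maturation. The part of cell composition in the fall of Fgf3 and Fgf10 was not tested.

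Fgf7, a mesenchymal ligand of the same subfamily, followed another course. It stood at 1.27, 0.560 and 2.61, fell 2.28-fold into the secretory stage (FDR = 0.0367) and rose 4.66-fold into maturation (FDR = 0.0026) in the authors' deposited table. With 1 added to each mean these folds were 1.46 and 2.31. In maturation it was also higher than in the cervical loop, 2.05-fold (FDR = 0.0256 in the authors' deposited table). The mesenchyme markers Pdgfra (325, 177 and 285) and Lum (389, 288 and 678) also rose from secretory to maturation, with FDR = 0.00186 and FDR = 0.00171 in the authors' deposited table. Of the 15 markers 6 were higher, 1 was lower and 8 did not pass there. Their part in the rise of Fgf7 was not tested.

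The genes with their peak in the secretory stage were 2 ligands. Fgf1, which binds every FGF receptor and lacks a signal for secretion, stood at 6.002, 9.99 and 3.26. It was 1.66-fold higher in secretory than in cervical loop tissue (FDR = 0.0168), 3.06-fold lower in maturation than in secretory tissue (FDR = 0.00124) and 1.84-fold lower in maturation than in the cervical loop (FDR = 0.0124) in the authors' deposited table. Neither listed Fgf1 transcript passed for secretory against cervical loop (Fgf1-202 FDR = 0.648, Fgf1-201 FDR = 0.886 in the authors' deposited table). Fgf1-202, with 93.8% of the summed transcript means in secretory tissue, passed in no pair. Fgf1-201 was lower in maturation than in secretory (FDR = 0.0176) and cervical loop tissue (FDR = 0.00282) in the authors' deposited tables. Fgf22, a further member of the Fgf7 and Fgf10 subfamily, stood at 0.593, 1.14 and 0.595. Its secretory mean was 1.92-fold above that of the cervical loop (FDR = 0.0169) and 1.92-fold above that of maturation (FDR = 0.0166) in the authors' deposited table. With 1 added to each mean both folds were 1.34. So within the subfamily of Fgf3, Fgf7, Fgf10 and Fgf22, the highest mean lay in the cervical loop for Fgf3 and Fgf10, in the secretory stage for Fgf22 and in maturation for Fgf7.

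The remaining ligand genes were low. In all, 7 of the 33 FGF genes stayed below 1 in every stage. Fgf23, the endocrine ligand of phosphate balance made by bone cells, stood at 0.393 in the cervical loop and at the floor later (FDR = 0.0428 and FDR = 0.0385 in the authors' deposited table). Markers of odontoblasts and bone, 7 in number, had a median log2 ratio of -1.26 for secretory against cervical loop and none passed there, while for maturation against cervical loop 2 were lower, 0 were higher and 5 did not pass. These were Dspp, at 81.7, 22.2 and 0.0701 (FDR = 0.00309), and Phex, at 23.07, 9.61 and 1.97 (FDR = 0.0154 in the authors' deposited table), and their part in the level of Fgf23 was not tested. Fgf21, another endocrine ligand, reached 0.215 in maturation and was at the floor in the other stages. Fgf2 lay between 0.190 and 0.238 and Fgf18 between 0.109 and 0.301, and neither passed in any pair. The homologous factors Fgf11, Fgf12 and Fgf13, which stay inside the cell and bind sodium channels, did not pass either. Fgf11 stood at 2.65, 1.95 and 1.56, Fgf12 at 0.691, 0.156 and 0.358, and Fgf13 at 0.242, 0.136 and 0.156.

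Fgfbp3 encodes a carrier that frees FGFs from the matrix. It stood at 3.63, 0.772 and 1.29, and was lower in both later stages than in the cervical loop (4.71-fold, FDR = 0.000791, and 2.81-fold, FDR = 0.00125) and its maturation mean lay 1.68-fold above the secretory one (FDR = 0.0206) in the authors' deposited table. With 1 added to each mean the first of these folds was 2.62. Its secretory mean was the lowest of the 3, as for Fgf7.

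**Figure D2:**
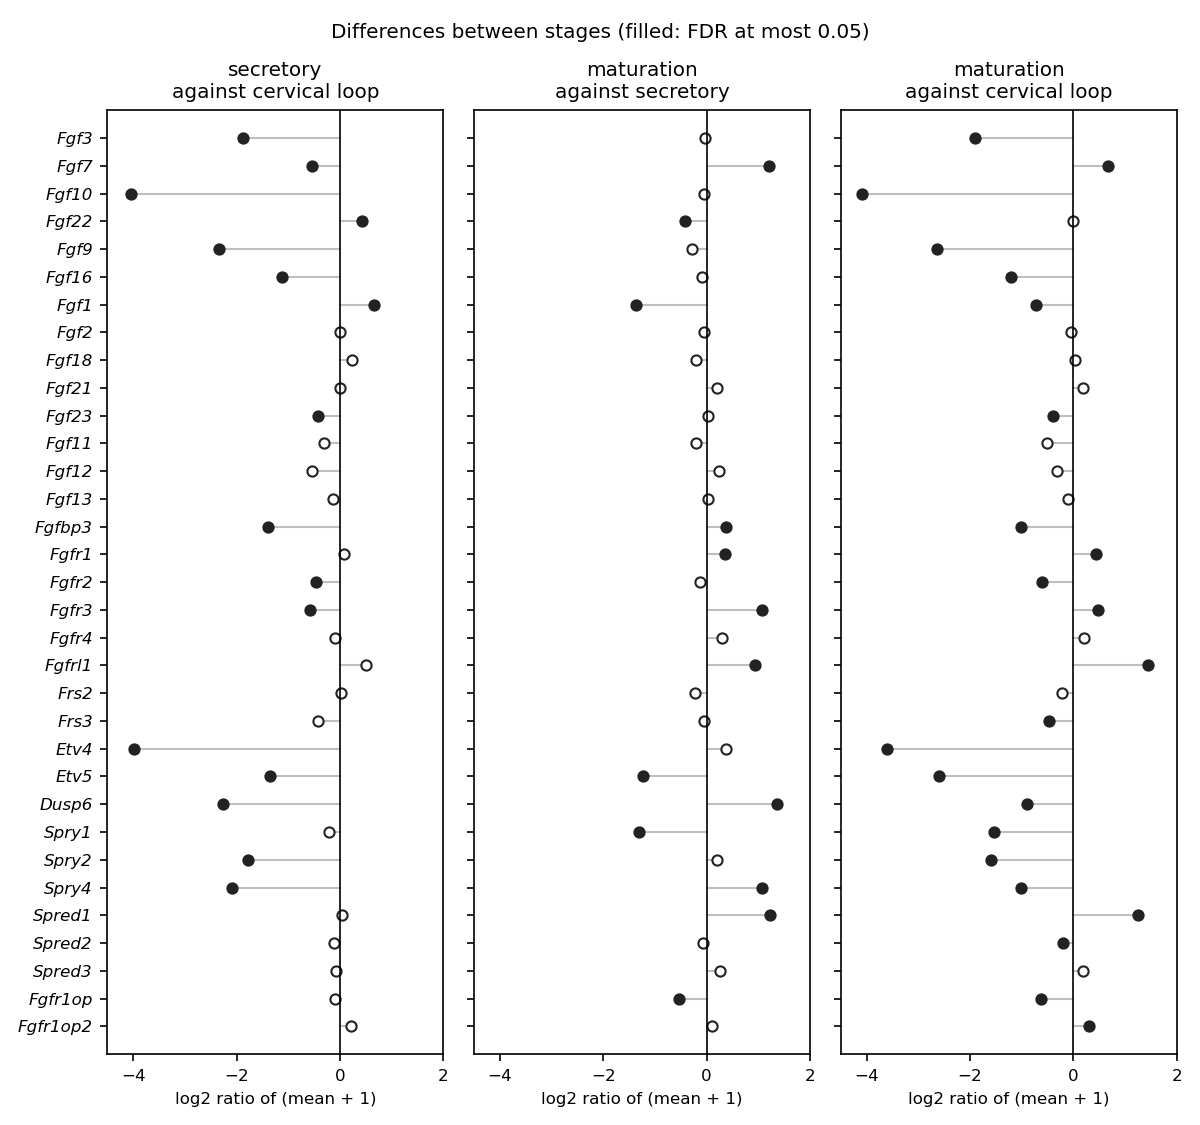
Log2 ratio of the deposited means, each with 1 added, for the 33 FGF genes in the 3 pairs of stages; filled points passed an FDR of 0.05, open points did not. Left of the line is lower in the stage named first. Points reach furthest left for Fgf10 and Etv4 in both comparisons with the cervical loop; no point of the receptors (Fgfr1 to Fgfrl1) lies as far from 0 as these.

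Receptor genes came next in the pathway. Fgfr2, whose epithelial form receives Fgf3, Fgf7 and Fgf10, stood at 147, 107 and 97.1. It was 1.38-fold lower in secretory (FDR = 0.0285) and 1.52-fold lower in maturation than in cervical loop tissue (FDR = 0.00737) in the authors' deposited table, and the step from secretory to maturation did not pass (FDR = 0.517). Fgfr1, the main receptor of mesenchyme, stood at 210.4, 222 and 284. Its maturation mean lay 1.28-fold above the secretory one (FDR = 0.017) and 1.35-fold above that of the cervical loop (FDR = 0.00631) in the authors' deposited table. Fgfr2 was thus highest in the cervical loop and Fgfr1 in maturation.

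Fgfr3, with means of 31.4, 20.5 and 44.2, was 1.53-fold lower in secretory than in cervical loop tissue (FDR = 0.0384) and then 2.15-fold higher in maturation (FDR = 0.0029) in the authors' deposited table. Fgfrl1 encodes a receptor without the kinase domain, which binds FGFs but does not signal as the others do. Its means were 7.75, 11.3 and 22.7, and maturation was 1.998-fold above secretory (FDR = 0.00915) and 2.93-fold above cervical loop tissue (FDR = 0.00142) in the authors' deposited table. The step from cervical loop to secretory did not pass (FDR = 0.114). Fgfr4 stayed between 0.503 and 0.852 and passed in no pair. Of the 5 receptor genes, 0 were higher and 2 lower in secretory than in cervical loop tissue, and 3 were higher and 0 lower in maturation than in secretory tissue in the authors' deposited table. Over all genes 16.5% were higher and 25.2% lower for the first of these pairs, and 21.8% and 21.1% for the second. Receptor genes thus passed at 40% and 60%, where all genes passed at 41.8% and 42.9%. In maturation 4 of 6 epithelial markers (Krt14 at 542 in secretory and 1691 in maturation tissue) and 6 of 15 mesenchyme markers were higher than in secretory tissue as well. So were 5 of 7 myeloid markers, whose summed means stood at 224, 190 and 666 in the order of the stages, and 4 of 7 endothelium markers, at 133, 174 and 260. Of the endothelium markers 6 of 7 were also higher in maturation than in the cervical loop. Summed means of 6 skeletal muscle markers stood at 3.26, 7.09 and 123, although 0 of these markers passed in any pair. The part of these cell types in the rise of Fgfr1, Fgfr3 and Fgfrl1 was not tested.

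Of the docking adaptors, Frs2 stood at 45.9, 46.6 and 39.5 and passed in no pair. Frs3, at 2.32, 1.48 and 1.40, passed for maturation against cervical loop only, 1.66-fold lower (FDR = 0.0332 in the authors' deposited table).

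Transcripts were listed separately for 9 of the FGF genes, 20 transcripts in each pair's table. Of these 4 passed between cervical loop and secretory tissue, 7 between secretory and maturation and 6 between cervical loop and maturation, where 16%, 17% and 25.1% of all 9949 transcripts passed. The authors' deposited tables also test each gene for altered isoform make-up, which passed for 1.19%, 1.8% and 2.79% of genes in the same order. Among the FGF genes it passed once, for Fgfr2 between secretory and maturation (FDR = 0.0127), and for 0, 1 and 0 genes in the 3 pairs, or 2, 4 and 2 at an unadjusted p under 0.05. For Fgfr2 it was FDR = 0.595 between cervical loop and secretory and FDR = 0.0903 between cervical loop and maturation in the authors' deposited tables.

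Between secretory and maturation tissue 1 of the 4 listed Fgfr2 transcripts passed for its own level, and the shares of the others shifted too. Fgfr2-201 stood at 55.8 in secretory and 33.5 in maturation tissue, 51.5% and 34.2% of the summed means of the listed transcripts, with FDR = 0.0706 for its own level in the authors' deposited table. Fgfr2-204 rose 2.86-fold, from 1.79 to 5.12 or from 1.65% to 5.22% of the sum (FDR = 0.000723 in the authors' deposited table). It had been 2.95-fold lower in secretory than in cervical loop tissue (1.37 and 4.04, FDR = 0.0105 in the authors' deposited table). Its maturation mean did not differ from that of the cervical loop by that test (5.12 and 4.87, FDR = 0.856). Fgfr2-203 stood at 29.1 and 37.8, or 26.8% and 38.6% of the sum, which is the widest gain in share among the 4 although its own level did not pass (FDR = 0.266 in the authors' deposited table). Fgfr2-202 stood at 21.7 and 21.6 and did not pass. For secretory against cervical loop, where the gene did pass, Fgfr2-201, Fgfr2-202 and Fgfr2-203 did not (FDR = 0.697, FDR = 0.502 and FDR = 0.45 in the authors' deposited table). Against the cervical loop, Fgfr2-201 was 2.23-fold lower in maturation (74.7 and 33.5, FDR = 0.000198 in the authors' deposited table), while Fgfr2-203 stood at 41.5 and 37.8 (FDR = 0.649). Fgfr2-201 was the listed Fgfr2 transcript that passed for that pair. Which of them carry the epithelial (IIIb) or mesenchymal (IIIc) form of the receptor is not given in the sources used here.

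**Figure D3:**
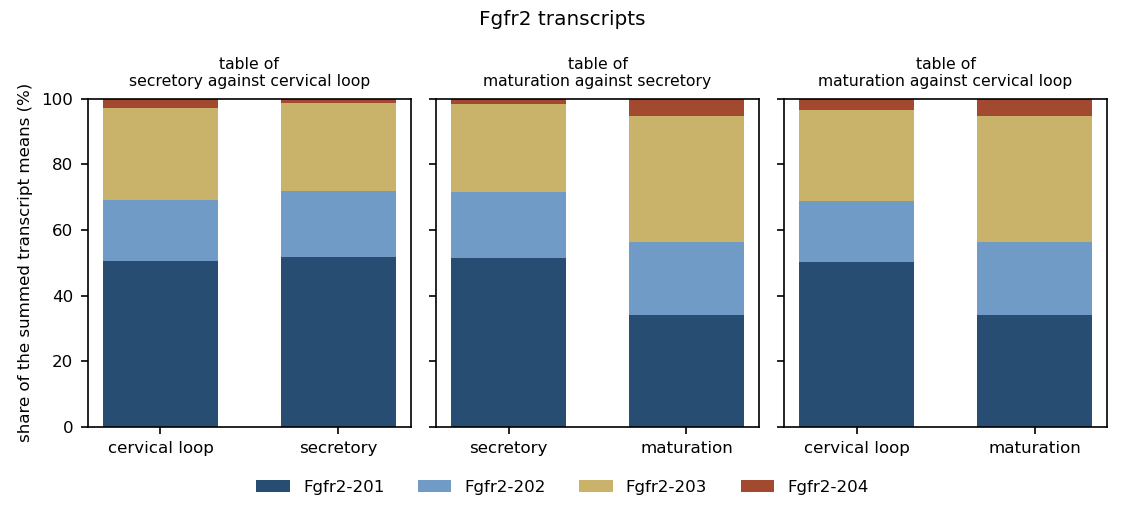
Share (%) of each listed Fgfr2 transcript in the summed deposited means of the 4 listed, in the 2 stages of each deposited table; the tables were made separately and are shown apart. Fgfr2-201 takes 51.5% in secretory and 34.2% in maturation tissue in the middle panel.

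Both Fgfr3 transcripts were higher in maturation than in secretory tissue, Fgfr3-201 at 37.0 against 16.6 and Fgfr3-202 at 7.56 against 4.25 (FDR = 0.0019 and FDR = 0.015 in the authors' deposited table). Neither passed for the other pairs, in which the gene did pass (FDR = 0.158 and FDR = 0.73 for secretory against cervical loop, FDR = 0.129 and FDR = 0.0684 for maturation against cervical loop in the authors' deposited tables). Both Fgfr1 transcripts were higher there too, Fgfr1-202 1.47-fold and Fgfr1-201 1.18-fold (FDR = 0.000346 and FDR = 0.0403 in the authors' deposited table). Fgfr1-201 was already 1.22-fold higher in secretory than in cervical loop tissue (FDR = 0.0407 in the authors' deposited table), while the gene as a whole did not pass for that pair.

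Etv4, an ETS transcription factor gene that FGF signals switch on, stood at 36.04, 1.34 and 2.04. It fell 27.0-fold into the secretory stage (FDR = 0.000741), or 15.9-fold with 1 added to each mean, and was 17.7-fold lower in maturation than in the cervical loop (FDR = 0.000522) in the authors' deposited table. Its relative Etv5 stood at 36.1, 13.6 and 5.18. It fell at each step, 2.66-fold into the secretory stage (FDR = 0.00269) and 2.62-fold into maturation (FDR = 0.00252) in the authors' deposited table. Etv4 and Etv5 thus both fell into the secretory stage, and of these Etv5 fell again into maturation.

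The Etv4 transcripts differed in the secretory stage. Etv4-201 stood at 16.5 in the cervical loop, 0.109 in the secretory stage and 1.33 in maturation, and Etv4-202 at 19.2, 1.27 and 0.755. For Etv4-201 the rise from secretory to maturation passed (FDR = 0.0208 in the authors' deposited table), from a mean next to the floor. The test of isoform make-up did not (FDR = 0.158, and FDR = 0.0948 for secretory against cervical loop).

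Dusp6, the phosphatase that inactivates ERK, stood at 66.5, 13.0 and 35.05. It fell 5.13-fold into the secretory stage (FDR = 0.000529), rose 2.70-fold into maturation (FDR = 0.0014) and there remained 1.90-fold under the cervical loop (FDR = 0.00462) in the authors' deposited table. Spry4, which blocks signalling from receptors to ERK, followed the same order of stages at 26.9, 5.53 and 12.8. It fell 4.86-fold (FDR = 0.00119), rose 2.31-fold (FDR = 0.00691) and stayed 2.10-fold under the cervical loop (FDR = 0.0103) in the authors' deposited table. These are the genes whose promoters are printed above.

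The other Sprouty genes took other courses. Spry2 stood at 8.67, 1.81 and 2.23, 4.78-fold lower in secretory than in cervical loop tissue (FDR = 0.00183) and with no passing rise into maturation (FDR = 0.213) in the authors' deposited table. Spry1 stood at 23.5, 20.1 and 7.51. Its secretory mean was 1.17-fold lower, which did not pass (FDR = 0.406), and it fell 2.68-fold into maturation (FDR = 0.000604) in the authors' deposited table. All 3 Sprouty genes were lower in maturation than in the cervical loop, 3.13-fold for Spry1, 3.90-fold for Spry2 and 2.10-fold for Spry4.

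Spred genes encode membrane proteins that bring neurofibromin to Ras and so damp the cascade. Spred1 stood at 29.4, 30.2 and 71.6. Its maturation mean was 2.37-fold above secretory (FDR = 0.000364) and 2.44-fold above cervical loop tissue (FDR = 0.000182) in the authors' deposited table. Spred2 (9.69, 8.83 and 8.32) passed for maturation against cervical loop only, 1.16-fold lower (FDR = 0.0461 in the authors' deposited table), and Spred3 (1.94, 1.79 and 2.33) passed in no pair. Of the 9 genes Etv4, Etv5, Dusp6, Spry1, Spry2, Spry4 and the 3 Spred genes, 7 were lower and 1, Spred1, was higher in maturation than in the cervical loop, with a median log2 ratio of -1.07. Over all genes 33.7% were lower and 24.1% higher for that pair, with a median log2 ratio of -0.12.

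**Figure D4:**
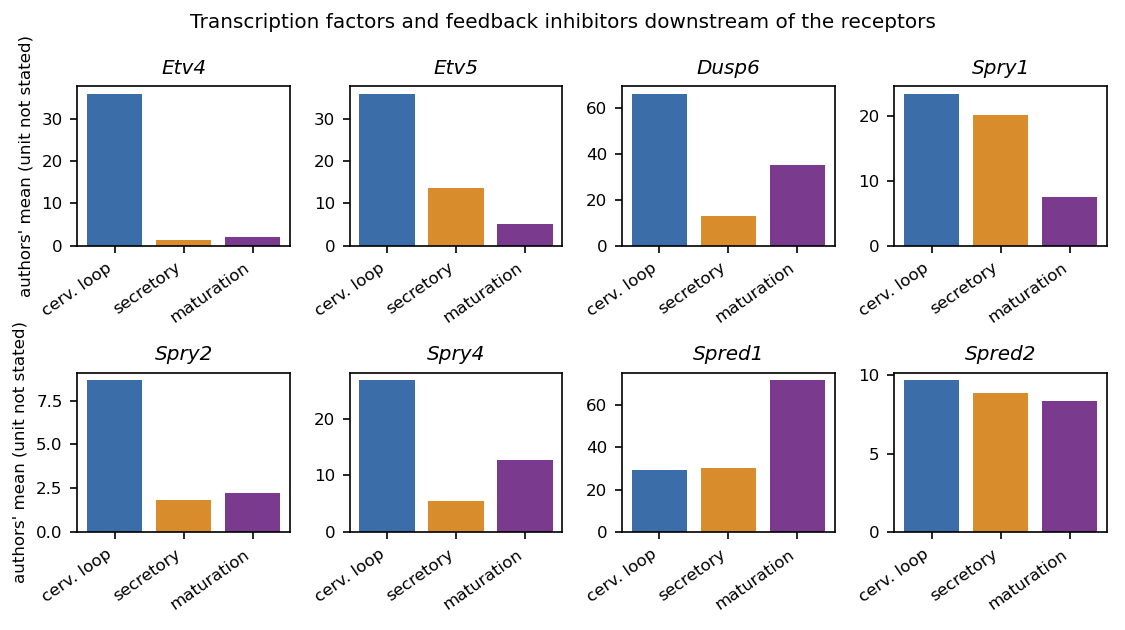
Deposited stage means (bars from 0, in the authors' normalised unit; 1 mean per stage, no error available) of 2 ETS factor genes and 6 inhibitor genes. Dusp6 and Spry4 are lowest in the secretory stage (13.0 and 5.53), Etv5 and Spry1 in maturation (5.18 and 7.51), and Spred1 is highest in maturation (71.6).

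The 2 genes with the name alone moved in opposite directions. Fgfr1op stood at 15.6, 14.6 and 9.80 and was 1.49-fold lower in maturation than in secretory tissue (FDR = 0.00185 in the authors' deposited table). Fgfr1op2 stood at 22.1, 25.8 and 27.7 and was 1.25-fold higher in maturation than in the cervical loop (FDR = 0.00856 in the authors' deposited table). Without them, 14 of 31 FGF genes were lower and 2 higher in secretory than in cervical loop tissue, 4 lower and 8 higher in maturation than in secretory tissue, and 16 lower and 5 higher in maturation than in the cervical loop. In the same order 51.6%, 38.7% and 67.7% of the 31 passed, against 41.8%, 42.9% and 57.8% of all genes.

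Other genes of the pathway were read from lists, and their counts are to be read beside the shares of all genes. Over all genes 16.5% were higher and 25.2% lower for secretory against cervical loop. The shares were 21.8% and 21.1% for maturation against secretory, and 24.1% and 33.7% for maturation against cervical loop. Of 28 adaptor and Ras-ERK genes, 13 were higher, 1 was lower and 14 did not pass for secretory against cervical loop, with a median log2 ratio of 0.25 against -0.14 over all genes. Ptpn11, the phosphatase SHP2 that relays the signal from FRS2, rose from 96.9 to 181 (1.87-fold, FDR = 0.000982), and Hras from 20.3 to 48.4 (2.38-fold, FDR = 0.0014) in the authors' deposited table. Rps6ka2 was the gene that fell (1.46-fold, FDR = 0.0388 in the authors' deposited table). For maturation against secretory 5 were higher, 7 were lower and 16 did not pass. Ptpn11 returned from 181 to 90.4 (FDR = 0.000475) and Plcg1 fell from 165 to 74.0 (FDR = 0.000421), while Rps6ka1 rose from 13.5 to 26.0 (FDR = 0.00099) in the authors' deposited table. For maturation against cervical loop 11 were higher, 6 were lower and 11 did not pass.

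Of 28 further ERK feedback and early response genes, 2 were higher, 10 were lower and 16 did not pass for secretory against cervical loop (median log2 ratio -0.54). Etv1, the other member of the Etv4 and Etv5 family, fell from 36.9 to 2.14 (17.3-fold, FDR = 0.000383), and Ccnd1, the cyclin D1 gene, from 112 to 10.8 (10.3-fold, FDR = 0.000424) in the authors' deposited table. Ets2 rose from 41.2 to 91.2 (2.21-fold, FDR = 0.00179 in the authors' deposited table). For maturation against secretory 20 were higher, 2 were lower and 6 did not pass (median log2 ratio 0.92, against 0.01 over all genes). For the same pair 5 of 7 myeloid markers (median log2 ratio 1.45), 4 of 7 endothelium markers (0.43) and 6 of 15 mesenchyme markers (0.54) were higher, and their part in the rise of these genes was not tested. Junb rose from 9.67 to 48.4 (5.00-fold, FDR = 0.000607) and the ERK phosphatase gene Dusp5 from 0.902 to 4.66 (FDR = 0.000698), whereas Il17rd, which encodes the FGF antagonist Sef, fell from 4.23 to 2.61 (1.62-fold, FDR = 0.0407) in the authors' deposited table. For maturation against cervical loop 13 were higher, 5 were lower and 10 did not pass, Etv1 8.25-fold lower at 4.48 (FDR = 0.000116 in the authors' deposited table). These early response genes answer to many signals besides FGF.

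Heparan sulfate genes moved both ways, as did all genes. Of 28, 8 were higher, 11 were lower and 9 did not pass from cervical loop to secretory, 9, 8 and 11 from secretory to maturation, and 9, 14 and 5 from cervical loop to maturation. In the same order 67.9%, 60.7% and 82.1% of them passed, against 41.8%, 42.9% and 57.8% of all genes. Ndst3, which encodes a sulfotransferase that modifies the chains, stood at 6.62 in the cervical loop and at the floor later (FDR = 0.000858 and FDR = 0.000342 in the authors' deposited table). The glypican gene Gpc3 stood at 98.3, 56.9 and 5.07, and was 11.2-fold lower in maturation than in secretory tissue (FDR = 0.00023 in the authors' deposited table). The syndecan gene Sdc1 stood at 189, 239 and 466 and rose 1.95-fold over the same step (FDR = 0.000657 in the authors' deposited table). Among 9 other coreceptors and partners, 2 were higher and 4 lower from cervical loop to secretory, 1 was higher and 2 were lower from secretory to maturation, and 1 was higher and 6 were lower from cervical loop to maturation. These passed at 66.7%, 33.3% and 77.8%, to be read beside the same shares of all genes. Flrt3, which binds FGF receptors, fell 2.48-fold into the secretory stage (13.0 to 5.22, FDR = 0.00158), and Cdh2 rose 2.31-fold (43.0 to 99.4, FDR = 0.0123) in the authors' deposited table.

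**Figure D5:**
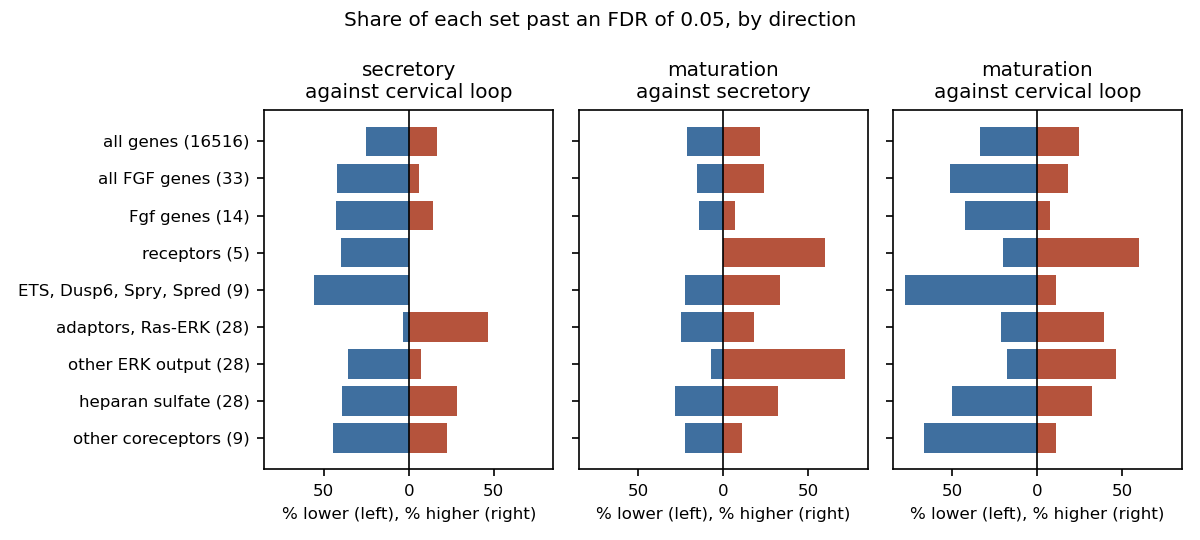
Share (%) of the measured genes of each set that passed an FDR of 0.05 as lower (left) or higher (right) in the stage named first, beside the share of all 16516 genes; the number of genes is in brackets. The Ras-ERK cascade set lies mostly to the right for secretory against cervical loop (13 of 28), where the set of ETS, Dusp6, Sprouty and Spred genes lies to the left (5 of 9).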

How the data were processed

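RNA was sequenced from 3 dissected rat enamel organ populations. Per the submitters' processing notes STAR 2.5.3a, Partek and the build rn6 were used; no source used here states the annotation, the gene filter, the normalisation or the model. Per the file headers the authors deposited least-squares stage means, treated here as a score because the headers name no unit, with a ratio of means and a p-value for each pair of stages. Since lengths and unit are unknown, levels were not compared between genes. The number of counted reads behind a value is unknown, so no interval is given.

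Benjamini-Hochberg adjustment of the authors' deposited p-values covered all 16516 genes (Python 3.11.15, numpy 2.4.6, pandas 2.3.3), which returned the authors' own FDR; printed transcript FDRs are the authors'. The adjustment was tested on simulated data. Means up to 0.1 count as at the floor, and folds against them were left out. No source used here states the scale of the authors' test, so direction is that of the means. Per-stage gene lists held the same member values within 0.462% and served as an alternative, beside other FDR thresholds, a minimum fold of 2, a filter on means below 1, a Benjamini-Yekutieli adjustment, a pseudocount of 1 and 3 rescalings. Members and lists were chosen with earlier results of these data known. Every member is named; of each other list at most 2 genes per direction and pair with the smallest p were eligible, besides markers.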

Additional observations from a re-analysis of the deposited data

How the results depend on the processing

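No paired analysis was possible because each stage is 1 deposited mean with no values per animal, and for the same reason no library could be left out. Of 88 ratios of FGF genes with both means above the floor, 47 passed, and 0 of these changed direction with a pseudocount of 1, the per-stage lists or 3 rescalings; 8 that did not pass changed sign under a rescaling. Rescaling moved the ratios of secretory against cervical loop by -0.13 to 0.14 on the log2 scale, and 7 of the passing ratios were under 1.5-fold.

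Counts of passing genes moved with the threshold. For secretory against cervical loop the 2 higher FGF genes became 0 at an FDR of 0.01, 0 with a fold of at least 2 and 0 with the Benjamini-Yekutieli adjustment. For maturation against secretory a fold of at least 2 left 5 higher and 3 lower, and Benjamini-Yekutieli left 4 higher. For maturation against cervical loop the fold left 3 higher and 11 lower, and Benjamini-Yekutieli 2 higher and 11 lower. Leaving out genes with means below 1 gave 3 higher and 13 lower for secretory against cervical loop and moved no count of FGF genes by more than 1.5 times. No share of all genes is given for these settings, so the counts show only how the calls of FGF genes moved.

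Over the pathway lists and the list of incisor niche signals given below, 30 genes were higher and 32 lower for secretory against cervical loop. These became 14 and 18 at an FDR of 0.01, and 11 and 18 with a fold of at least 2. For maturation against secretory 39 were higher and 27 lower, with 14 lower at 0.01, and 23 and 12 with the fold. For maturation against cervical loop 41 were higher and 40 lower, with 27 higher at 0.01 and 17 higher with the fold. The lists held 28, 28, 28, 9 and 19 measured genes, and shares of all genes at the stricter settings are likewise not given.

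Transcripts at an FDR of 0.01 became 0 higher for secretory against cervical loop, 3 higher and 0 lower for maturation against secretory, and 1 higher for maturation against cervical loop. The isoform result for Fgfr2 would not pass at 0.01. The cause of these moves is the stricter rule itself.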

Other observations

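Signals that meet FGFs in the incisor niche were read from a further list of 19 genes. For secretory against cervical loop 5 were higher, 6 lower and 8 did not pass, for maturation against secretory 4, 8 and 7, and for maturation against cervical loop 7, 9 and 3. In the same order 57.9%, 63.2% and 84.2% of them passed, against 41.8%, 42.9% and 57.8% of all genes. Sfrp5, a Wnt inhibitor gene of the cervical loop, stood at 15.3, 0.312 and 0.968 in the order of the stages (FDR = 0.000385 for the first step in the authors' deposited table). Inhba and Inhbb, which encode chains of activin, rose from secretory to maturation, Inhba from 5.78 to 83.7 (14.5-fold, FDR = 0.000489) and Inhbb from 6.11 to 27.4 (4.49-fold, FDR = 0.000663) in the authors' deposited table. The hedgehog targets Ptch1 (311.5 to 22.3) and Gli1 (90.6 to 2.27) fell over that step, while Bmp4 stood at 42.1, 60.5 and 60.8.

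In RefSeq's GRCr8 order Fgf3 lies near Ccnd1, the cyclin D1 gene, which is 4 protein-coding genes away. The genes between Fgf3 and Ccnd1 were not among those analysed here. Ccnd1 stood at 112, 10.8 and 19.0 and, like Fgf3, was lower in both later stages than in the cervical loop (FDR = 0.000424 and FDR = 0.000169 in the authors' deposited table). That pattern was shown by 18.6% of all genes. On the other side of Fgf3, Fadd was likewise lower in both, at 15.7, 9.25 and 8.81 (FDR = 0.00191 and FDR = 0.000627 in the authors' deposited table). The other genes there were not lower in the secretory stage: Ano1 stood at 22.96 and 28.8 (FDR = 0.552), Ppfia1 rose from 37.0 to 54.6 (FDR = 0.00296) and Cttn stood at 69.5 and 73.9 (FDR = 0.26) for secretory against cervical loop in the authors' deposited table.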
